A study of Arabidopsis thaliana with 12 samples.

Results

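XERICO (AT2G04240) encodes a small RING-type zinc finger protein of Arabidopsis thaliana. Its transcript was measured by 1 of 3439 probes in 12 samples, 6 of them toc120 mutant and 6 wild type (WT), which are called arrays here. The member was found as the probe to which the platform annotation gives this gene alone. The annotation gives 691 genes a probe of their own. XERICO has 1 such probe, and 0 probes shared by several genes hold XERICO. The gene was chosen because its level differed between these genotypes, so its levels and differences are a description and carry no test.

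Both genotypes are of the Columbia 0 accession. TOC120 is a receptor GTPase of the chloroplast outer envelope, and the mutant's import of proteins across that envelope is impaired, per the labels. Neither label nor file states the tissue, plant age or growth conditions, or says that samples came from separate plants. Spread between arrays may therefore be technical. The genotype labels were not checked against TOC120 itself, which no probe measures alone.

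RING proteins typically act as E3 ubiquitin ligases, which mark other proteins for degradation. In Arabidopsis, plants that overproduce XERICO accumulate more abscisic acid (ABA) and tolerate drought better. ABA is a hormone that closes stomata and switches on drought genes, and it is made from carotenoids whose synthesis takes place in plastids. XERICO has also been described as an early target of DELLA proteins, the repressors of gibberellin signalling.

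The XERICO signal was low on every toc120 array and high on every WT array. In the deposited intensities, which run from 0 to 100 on a linear scale with an unknown background correction, the toc120 arrays 1 to 6 read 0.371, 0.425, 0.523, 0.438, 0.356 and 0.383. The WT arrays 1 to 6 read 2.82, 2.93, 3.45, 3.35, 1.94 and 1.85. The genotypes did not overlap: the lowest WT array was 3.54 times the highest toc120 array. A complete separation in this direction was seen for 6.51% of all probes, and one in the opposite direction for 22.7%. XERICO was above 0 on all 12 arrays.

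The arrays differ in overall brightness, so the values were also quantile-normalised, which gives all arrays the same distribution. The toc120 arrays 1 to 6 then read 0.346, 0.399, 0.356, 0.302, 0.301 and 0.317, and the WT arrays 3.04, 3.12, 2.93, 2.73, 2.38 and 2.27. On this scale the lowest WT array was 5.68 times the highest toc120 array, and 16.3% of all probes had every toc120 array below every WT array. Within toc120 the highest array was 1.32 times the lowest, and within WT 1.38 times, so both spreads were small beside the gap.

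**Figure D1:**
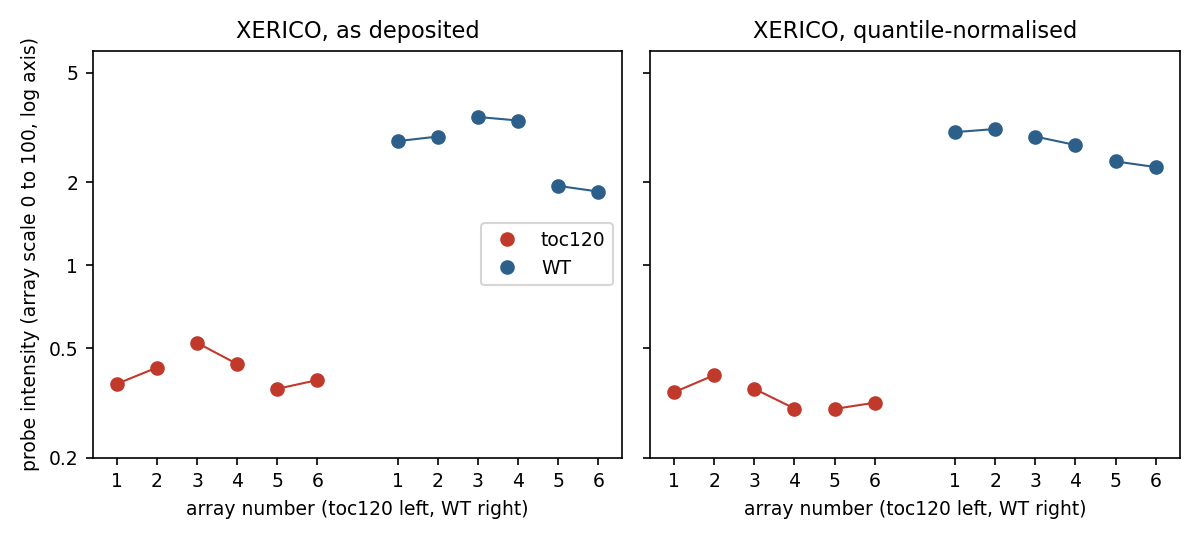
Intensity of the XERICO probe on each array, on a log axis, as deposited (left) and quantile-normalised (right), with toc120 in red and WT in blue and a line joining arrays of neighbouring number. As deposited, toc120 arrays lie between 0.356 and 0.523 and WT arrays between 1.85 and 3.45.

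Arrays of neighbouring number (1 and 2, 3 and 4, 5 and 6) are alike over all probes, so means were taken over the 3 pair means of a genotype. XERICO averaged 0.337 ± 0.0323 in toc120 and 2.74 ± 0.385 in WT (quantile-normalised intensity, SD, n = 3 pair means each). The toc120 mean was 12.3% of the WT mean. As deposited, it averaged 0.416 ± 0.0576 in toc120 and 2.72 ± 0.764 in WT, and the toc120 mean was 15.3% of the WT mean. Fewer cells that express the gene and less of its RNA per cell cannot be told apart in such bulk RNA.

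On the log2 scale used for all probes, log2 of the quantile-normalised intensity plus a constant of 0.02756, XERICO stood at -2.92 in toc120 relative to WT (SE 0.13, limma on the pair means). That is a 7.58-fold lower level. The constant draws folds towards 1, and the plain ratio of the WT mean over the toc120 mean was 8.14.

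Because the genotypes did not overlap, WT had to be higher at each number, so the ratios by number describe size only. Equal numbers were matched from the data, not the labels. The WT array over the toc120 array of the same number gave ratios of 7.59, 6.88, 6.6, 7.65, 5.44 and 4.83 for numbers 1 to 6 in the deposited intensities. After quantile normalisation the same ratios were 8.79, 7.81, 8.22, 9.04, 7.89 and 7.15. Numbers 5 and 6 had the smallest ratios as deposited, since WT was at its lowest there. They remained lowest among the number pairs after normalisation, with a ratio of pair means of 7.51 against 8.27 for numbers 1 and 2 and 8.6 for numbers 3 and 4.

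Neighbouring arrays differed little for this probe. In WT the higher of the 2 neighbours was 1.04, 1.03 and 1.05 times the lower as deposited, whereas the pair means ran from 1.89 to 3.4. In toc120 the neighbours differed 1.15-, 1.2- and 1.08-fold, and the pair means ran from 0.369 to 0.48. In both genotypes numbers 3 and 4 had the highest deposited pair mean and numbers 5 and 6 the lowest. Numbers 3 and 4 also had the highest array totals, 3515.1 to 3686.1 against 2640.7 to 2873.0 elsewhere.

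Expressed as a share of the array's total intensity, XERICO made up 0.119 to 0.148 per mille in toc120 and 0.701 to 1.09 per mille in WT. The pair means averaged 0.135 ± 0.00433 per mille in toc120 and 0.908 ± 0.177 per mille in WT (SD, n = 3 each). On this scale the toc120 pairs were nearly level, and the fall in WT at numbers 5 and 6 was still there, at 0.721 and 0.701 per mille.

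The probe's standing among all probes moved with the genotype. It ranked 1141, 1015, 1115, 1277, 1278 and 1226 from the brightest of the 3439 probes on the toc120 arrays 1 to 6. On the WT arrays it ranked 136, 134, 142, 151, 174 and 182. Brightness also depends on the probe, so these ranks place the spot and not the abundance of the transcript.

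The signal in toc120 remained above that of the middle probe. XERICO was 1.49 to 2.26 times the array median in toc120 and 11.8 to 22.7 times in WT, and 62.8% to 70.5% of the probes were dimmer on the toc120 arrays against 94.7% to 96.1% on the WT arrays. The medians themselves were 0.188 to 0.278 on toc120 arrays and 0.151 to 0.157 on WT arrays.

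**Figure D2:**
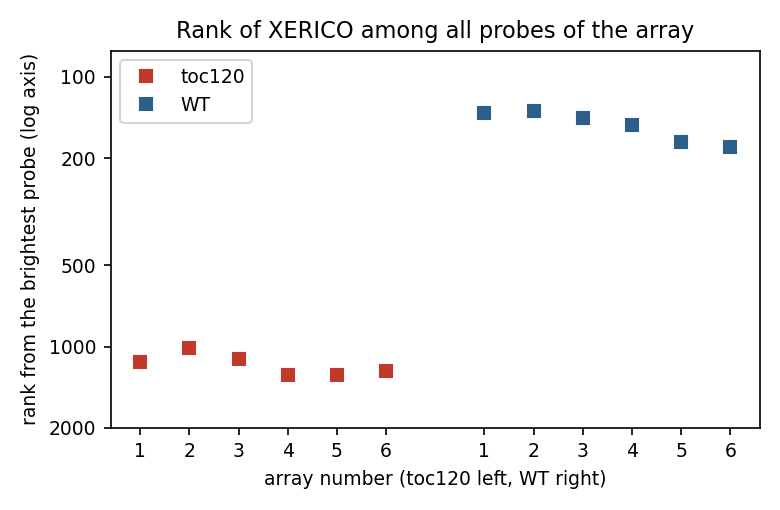
Rank of the XERICO probe from the brightest of 3439 on each array, on a log axis with brighter ranks at the top, with toc120 in red on the left and WT in blue on the right. Ranks lie between 1015 and 1278 on toc120 arrays and between 134 and 182 on WT arrays.

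Against all other probes, the fall of XERICO was among the largest, but the gene was chosen for this difference. Counting rises too, the size of its log2 change had rank 22 of 3439, and rank 47 as deposited. Among falls that change had rank 8 of 3439, and rank 3 among the 692 probes with 1 gene. Of the 7 probes with a larger fitted fall, 5 were listed at 0 on 1 or more toc120 arrays, where the fitted size depends on the constant. None of the 7 had a WT mean above that of XERICO, and the brightest of them averaged 2.64 in WT. Among the 2512 probes above 0 on all arrays, the ratio of the lowest WT to the highest toc120 array as deposited was rank 5 for XERICO, and rank 2 among the 495 of these with 1 gene.

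The size of the change depended on the scale. The direction did not, but the gene was chosen for this difference, so that is no test. As deposited, the log2 change was -2.61, and the median of all probes was 0.23. After scaling all arrays to a common median it was -3.18, and the median of all probes was -0.04. With a larger constant of 0.2504 it was -2.34, a 5.08-fold lower level, which was the largest fall of the 692 probes with 1 gene. Relative to the median of all probes, the change was -2.84 in the deposited values, -3.14 in the median-scaled ones and -2.92 in the quantile-normalised ones.

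**Figure D3:**
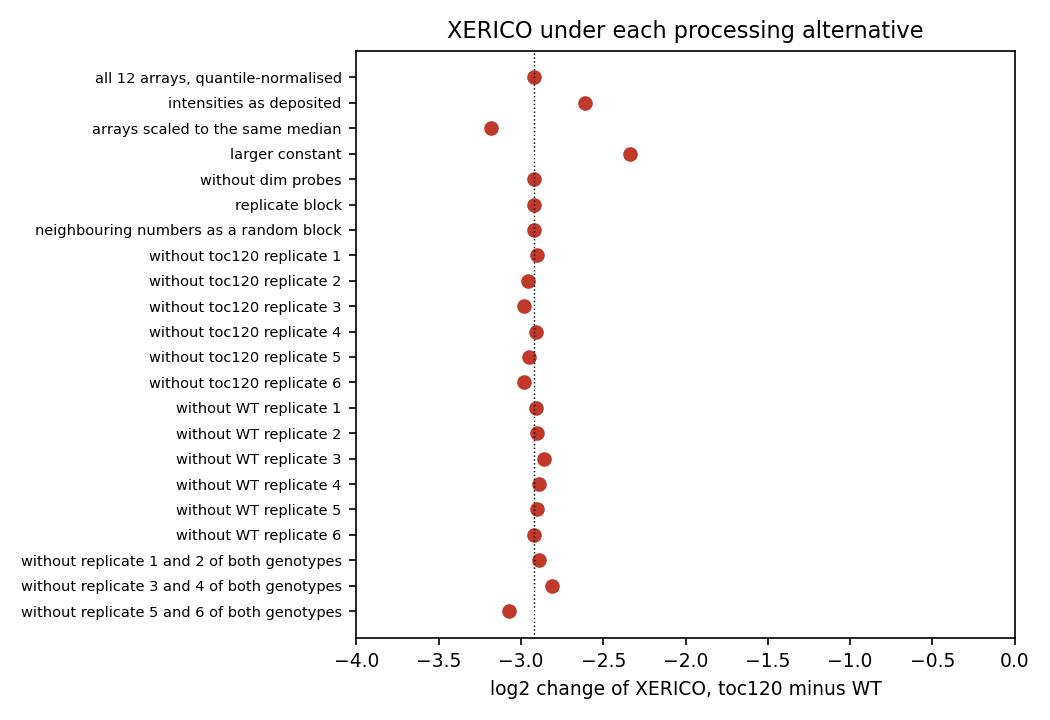
Log2 change of XERICO, toc120 minus WT, under each processing alternative and with each array or pair of numbers left out, the dotted line marking the value from all 12 quantile-normalised arrays, -2.92. Leaving out arrays moved it between -3.07 and -2.81, less than the scaling or the constant did, which gave -3.18 to -2.34.

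On the quantile-normalised scale the spread of XERICO within a genotype was below the median spread of other probes. As deposited, the highest array was 1.47 times the lowest in toc120 and 1.86 times in WT. With equal array medians these ratios were 1.52 and 1.92. The SD of the quantile-normalised log2 values of XERICO over the 6 arrays was 0.147 in toc120 and 0.189 in WT. For the other 2511 probes above 0 on all arrays the median SD was 0.285 in toc120 and 0.254 in WT. An SD below that of XERICO was found for 15.1% of them in toc120 and for 31.9% in WT. These probes were not matched to XERICO in brightness, and XERICO was chosen for its difference.

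For the genes described next and all later ones, a gene is said to have risen or fallen if it passed limma's test (Benjamini-Hochberg adjusted p under 0.05 over all probes) in the fit of all 12 arrays and again in the fit of pair means. By that rule 31.1% of all probes were called: 16.7% fell (575 probes) and 14.4% rose (494 probes). The balance depended on the scaling, with 704 higher and 186 lower as deposited, and 365 higher and 537 lower with equal array medians. The 5 1-gene probes nearest to XERICO in log2 change among them, chosen by that change, were AT1G73120, AT4G12270, AT-HF, GH9B12 and AT2G47360. AT1G73120 had quantile-normalised intensities of 0.00872 to 0.124 in toc120 (median 0.0746) and 0.633 to 0.875 in WT (median 0.656), a log2 change of -3.00.

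GH9B12, a member of the glycosyl hydrolase 9 family of endoglucanases whose relatives may share its signal, lay at 0.0302 to 0.13 in toc120 (median 0.0893) and 0.332 to 0.644 in WT (median 0.559). The other 3 were partly listed at 0 in the mutant. AT-HF, an enzyme of histidine synthesis, was listed at 0 on 4 toc120 arrays, where its highest value was 0.0288, and lay at 0.0927 to 0.237 in WT. AT4G12270 was listed at 0 on 3 toc120 arrays, where its highest value was 0.0493, and lay at 0.343 to 0.605 in WT. AT2G47360 was listed at 0 on 4 toc120 arrays, where its highest value was 0.0496, and lay at 0.0815 to 0.172 in WT. The likeness to XERICO holds only with the small constant: with the larger one, where XERICO was at -2.34, AT1G73120 was at -1.57, AT4G12270 at -1.36, GH9B12 at -1.19, AT-HF at -0.66 and AT2G47360 at -0.57. All 5 were dimmer than XERICO in WT. Without numbers 1 and 2 the calls of AT4G12270 (limma adjusted p = 0.0697) and AT2G47360 (0.0643) were lost. Without 3 and 4 those of AT1G73120 (0.0917), GH9B12 (0.0701) and AT2G47360 (0.0666) were lost. Without 5 and 6 that of GH9B12 (0.0596) was lost, while AT-HF kept its call under every alternative.

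The 5 1-gene probes nearest to XERICO in mean WT level were AT3G09080, AT1G76450, AT1G15410, PRK and AT4G18180. All changed less than XERICO. XERICO was chosen for its difference and they were not, so the comparison is a description only. AT1G76450, which encodes a PsbP-domain protein, rose: it lay at 7.22 to 9.18 in toc120 (median 8.64) and 2.59 to 2.93 in WT (median 2.77), a log2 difference of 1.59 (SE 0.09, with limma adjusted p = 0.00112 on pair means).

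AT4G18180 rose by 1.64 on the log2 scale, with 8.09 to 10.8 in toc120 and 2.72 to 3.21 in WT, although with equal array medians it did not pass (limma adjusted p = 0.0766). PRK, the Calvin cycle enzyme phosphoribulokinase, lay at 1.63 to 2.27 in toc120 and 1.94 to 3.12 in WT and did not pass with neighbours averaged (log2 change -0.40, limma adjusted p = 0.0824). AT1G15410 fell by 0.43, with 2.01 to 2.34 in toc120 and 2.48 to 3.32 in WT. That call was lost as deposited, with equal medians, without dim probes, without toc120 1, toc120 4 or WT 5, and without any pair of numbers, with limma adjusted p up to 0.465. AT3G09080 rose by 0.35 (limma adjusted p = 0.0304 on pair means), with 3.25 to 3.92 in toc120 and 2.42 to 2.95 in WT. With equal array medians it was at -0.21 and did not pass. The call was also lost as deposited (limma adjusted p = 0.241), without dim probes (0.0917) and with the sample number as a block (0.102). Leaving out any pair of numbers ended it too (0.102 to 0.14).

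**Figure D4:**
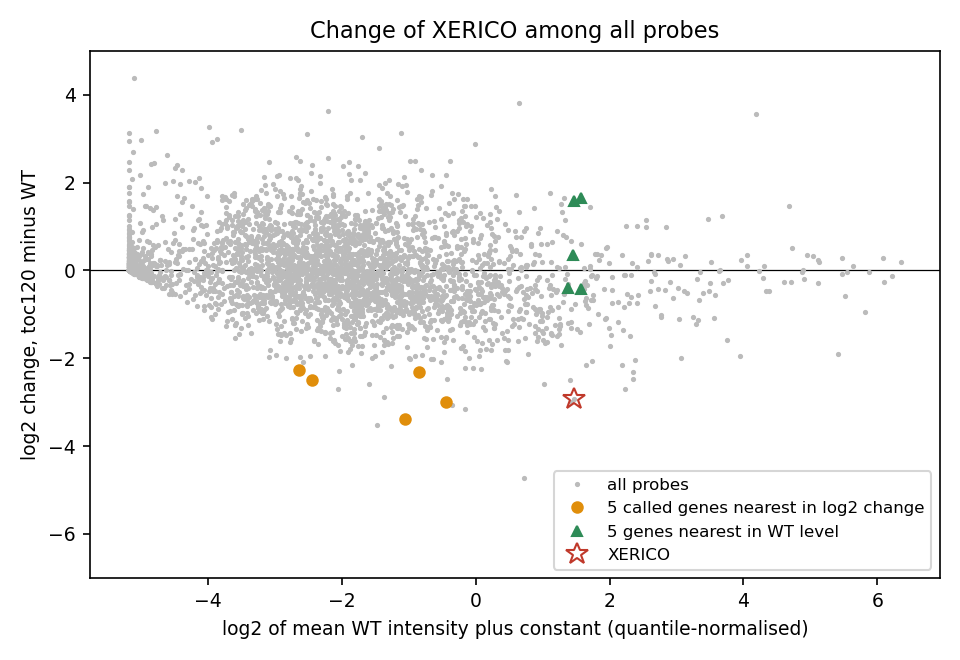
Log2 change, toc120 minus WT, against log2 of the mean WT intensity plus the constant for all 3439 probes (grey), with XERICO as a red star, the 5 called genes nearest in change in orange and the 5 genes nearest in WT level in green. XERICO, which was chosen for its difference, lies at -2.92, while the genes of similar WT level lie between -0.43 and 1.64.

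Few genes of the ABA pathway lists were measured. Of 103 loci on the 4 ABA lists (synthesis, breakdown and transport; carotenoid precursors; perception and signalling; ABA and drought responsive genes), 1 had a probe of its own and 2 lay only on shared probes. None of the 25 gibberellin loci and neither of the 2 reported partners of XERICO, TLP9 and UBC8, had a probe of its own. The same held for all 24 markers of leaf, root, seed, guard cells and senescence, so the tissue could not be checked. No other probe was named as a RING or ubiquitin gene, as the annotation gives symbols and synonyms without full descriptions.

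The measured member was Z-ISO (AT1G10830), the 15-cis-zeta-carotene isomerase of the carotenoid pathway that supplies ABA precursors. Its quantile-normalised intensities were 0.225, 0.145, 0.091, 0.137, 0.219 and 0.198 on the toc120 arrays 1 to 6, and 0.119, 0.19, 0.058, 0.0377, 0.145 and 0.134 on the WT arrays. The genotypes overlapped. The log2 change was 0.54 (SE 0.42), and 0 of 1 ABA list members passed, with limma adjusted p = 0.187 in the fit of 12 arrays and 0.414 on pair means. At an unadjusted p under 0.05 the count was also 0.

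Genes that follow XERICO from array to array were sought within genotype. For each of the 2511 other probes above 0 on all arrays, Pearson's r with XERICO was taken over the 12 deviations of log2 values from the genotype mean. The r values had a median of 0.055, and the 5th and 95th percentiles were -0.652 and 0.674. The points are few, neighbouring arrays are alike, and equal numbers of the genotypes deviate together, so r is given as a description without a p. Of all 2511 probes, 28 had r over 0.8, and of the 494 with 1 gene, 8 did.

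The 10 1-gene probes with the highest r, from 0.794 to 0.87, were AT1G15410, AT4G19900, AT2G32470, AT2G22050, AT2G27290, AT5G27860, AT5G19750, AT5G03900, AT2G37510 and DI21. Their r was 0.479 to 0.873 within toc120 and 0.834 to 0.977 within WT (n = 6 arrays each). It rested partly on WT 5 and WT 6, the 2 arrays farthest from the median of the XERICO deviations: without them r was 0.524 to 0.803. The set depended on the scaling and on numbers 5 and 6: 4 of the 10 stayed among the highest 10 as deposited, 4 with equal array medians and 0 without numbers 5 and 6.

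Between genotypes these genes went both ways: 3 of the 10 fell, 2 rose and the others did not pass, against 14.5% falling and 15.9% rising among all 1-gene probes. AT4G19900 fell by 0.62 on the log2 scale, with 4.38 to 5.65 in toc120 (median 4.96) and 6.2 to 8.55 in WT (median 8.18), a difference that did not pass as deposited (limma adjusted p = 0.105) or without any pair of numbers (0.0651 to 0.186). AT5G03900 fell by 1.31, with 0.072 to 0.111 in toc120 (median 0.097) and 0.191 to 0.33 in WT (median 0.296). AT2G32470 rose by 1.77, with 0.812 to 1.37 in toc120 (median 1.06) and 0.209 to 0.378 in WT (median 0.322). Neither of these last calls held without numbers 1 and 2 or without 3 and 4, with limma adjusted p of 0.0623 and 0.0915 for AT5G03900 and of 0.0543 and 0.107 for AT2G32470.

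DI21 (AT4G15910) is a gene known to be induced by drought and regulated by ABA. It was not on the ABA lists and is not in their count. Its quantile-normalised intensities were 2.28, 2.09, 2.03, 2.03, 1.9 and 1.72 on the toc120 arrays 1 to 6, and 1.45, 1.4, 1.45, 0.949, 0.86 and 0.816 on the WT arrays. All toc120 arrays lay above all WT arrays, the opposite direction to XERICO. This was also so as deposited, where 22.7% of all probes showed such a separation. That share was not counted on the quantile-normalised scale. The log2 difference was 0.82 with an SE of 0.21, and limma gave an adjusted p of 0.0014 in the fit of 12 arrays and 0.043 on pair means. DI21 stayed higher in toc120 under every alternative run, at 0.53 to 1.11. The call was lost as deposited (limma adjusted p = 0.0641), with equal array medians (0.314), without toc120 5 (0.053) and without WT 4 (0.0868). It was also lost without any pair of numbers (0.0857 to 0.23).

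The lowest r of all 2511 probes was that of AT5G40070, at -0.964, with -0.939 in toc120, -0.985 in WT and -0.937 without WT 5 and WT 6. These r are on the quantile-normalised scale, and the lowest r were not recomputed under other scalings. AT5G40070 was dim, at 0.0482 to 0.147 in toc120 (median 0.108) and 0.0615 to 0.166 in WT (median 0.0908). It did not pass between genotypes (log2 change -0.04, limma adjusted p = 0.975 with neighbours averaged). The next among the 1-gene probes was ATSPS4F, a sucrose-phosphate synthase, with r of -0.863. It rose, with 1.45 to 1.93 in toc120 (median 1.74) and 0.695 to 0.978 in WT (median 0.775), a log2 difference of 1.07 (SE 0.14, with limma adjusted p = 0.00564 on pair means), a call lost without numbers 1 and 2 (0.0529) or 3 and 4 (0.0799). AT5G14910, AT1G73740 and AT1G01250, the last an ERF/AP2 transcription factor gene, had r of -0.797, -0.791 and -0.77 and did not pass between genotypes. AT1G73740, at a log2 change of 1.08, did pass with the sample number as a replicate block (limma adjusted p = 0.0236) and with neighbouring numbers as a random block (0.0229).

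**Figure D5:**
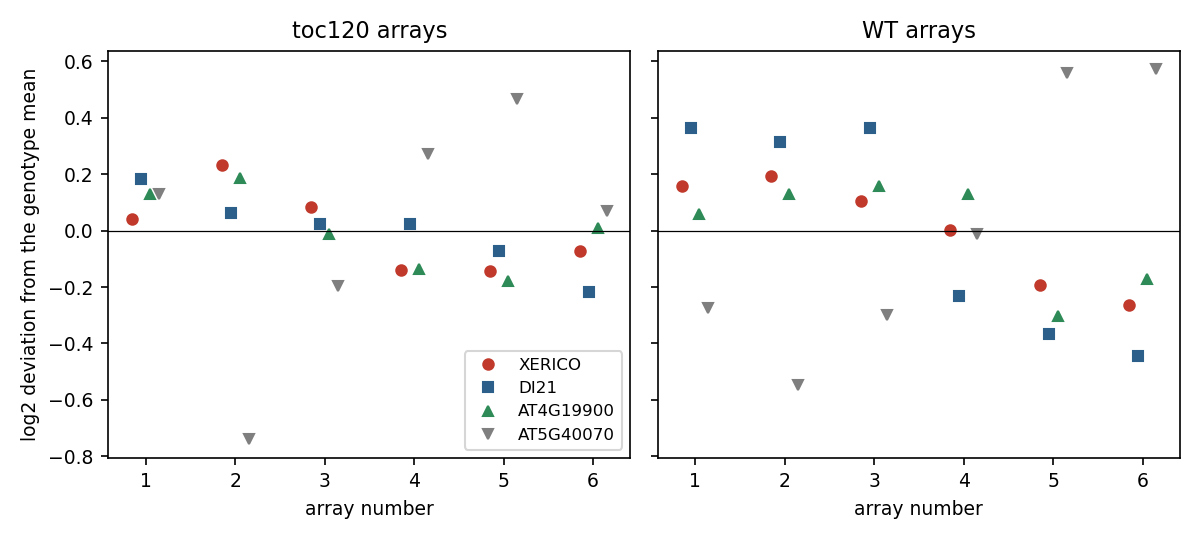
Deviation of log2 values from the genotype mean on each array for XERICO, for DI21 and AT4G19900, which are among the 10 genes with the highest r, and for AT5G40070, which has the lowest, with toc120 on the left and WT on the right. XERICO, DI21 and AT4G19900 are lowest among the WT arrays on WT 5 and WT 6, where AT5G40070 is highest. Within toc120, r with XERICO was 0.479 for DI21 and 0.873 for AT4G19900.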

How the data were processed

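The authors deposited 1 table of probe intensities, 3439 probes by 12 arrays, on a linear scale. Their background correction, scaling and array type: not given in the sources used here. The highest value was within 0.001 of 100 on 7 arrays, and 11.8% to 17.3% of an array's values were exactly 0. Array totals were 2688.2 to 3686.1 in toc120 and 2640.7 to 3553.3 in WT. The number of arrays limits the precision.

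Intensities were quantile-normalised and entered as log2(value + 0.02756), where 0.02756 is the 0.05 quantile of all values above 0. limma 3.58.1 in R 4.3.3 (lmFit, eBayes, two-sided) compared toc120 with WT over all probes. A call required an adjusted p under 0.05 over the 12 arrays and with neighbouring numbers averaged. These procedures were tested on simulated data in which equal numbers of the genotypes did not deviate together and no values were set to 0. The simulations therefore do not cover those features of the data. Spearman's rho across probes was 0.952 to 0.975 between neighbours and 0.91 to 0.946 between other arrays of a genotype, so neighbours may be duplicate readings, although the labels do not say so. p-values measure only the spread between these samples.

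Equal numbers of the genotypes deviated together (r of 0.217 to 0.35 across probes), and 12 of 12 arrays correlated best with their own number. They were treated as paired from the data, not the labels, in an alternative with the number as a block.

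Of the probes, 692 have 1 gene in GEO's platform annotation, 870 several and 1877 none, and 690 of the first matched a TAIR10.1 locus. XERICO and the gene lists were chosen with earlier results of these data known. Named genes were XERICO, measured list members, the 10 highest and 5 lowest r to XERICO, and the 5 nearest in WT level and the 5 nearest in log2 change among called 1-gene probes. No coordinates or sequences are given. Figures were drawn with matplotlib 3.10.9.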

Additional observations from a re-analysis of the deposited data

Results flagged for a closer look

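On toc120 array 1, AT-HF read 0.0288, against 0 to 0.00345 on the other toc120 arrays (quantile-normalised intensity). Its distance from the nearest of them was 0.88 of the range of the 6, past Dixon's critical value. On toc120 array 6, AT2G47360 read 0.0496, against 0 to 0.000974 on the others, a gap of 0.98 of the range. Both genes are near the bottom of the scale in toc120. No array stood apart in this way for XERICO. These were 2 of 52 groups of 6 arrays, and chance marks about 1 in 20.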

How the results depend on the processing

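XERICO was lower in toc120 under every alternative run, which is no test, since it was chosen for this difference. Its log2 change was -2.61 as deposited, -3.18 with equal array medians and -2.34 with the larger constant, against -2.92. With arrays left out singly or by number pair it was -3.07 to -2.81. With the sample number as a replicate block it was -2.92, and 967 probes were called, against 1069 without the block. The block ended the call of AT3G09080 among the named genes and added AT5G19750 and AT1G73740. AT5G19750 also passed as deposited (limma adjusted p = 0.0229), and AT1G73740 also with neighbouring numbers as a random block. With arrays left out, 315 to 1078 probes were called (164 to 494 higher, 151 to 586 lower). The low counts came without a number pair, which leaves 2 pair means a genotype: 607 (280 higher, 327 lower) without numbers 1 and 2, 315 (164 and 151) without 3 and 4, and 476 (217 and 259) without 5 and 6. As deposited, 186 probes were called lower and 704 higher, against 575 and 494, and the cause was not tested.

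Of the 10 genes with the highest r to XERICO, 4 stayed among the highest 10 as deposited, 4 with equal medians and 4 over pair means. With arrays left out, 0 to 9 stayed: 2 without numbers 1 and 2, 5 without 3 and 4 and 0 without 5 and 6. The ABA list call stayed at 0 of 1 throughout (0 to 0 with arrays left out). AT3G09080, at 0.35, was at -0.21 with equal medians. Of the 25 named genes besides XERICO, 14 were called, and 12 lost the call under 1 or more alternatives. Dim probes such as Z-ISO have signals close to the zeros, which limits what they can show.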
